A study of Rattus norvegicus with 24 samples.

Results

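The genes followed in rat blood were 10 genes of platelets, each with a probe on the array: Pf4, Ppbp, Itga2b, Itgb3, Gp9, Gp1bb, Gp5, Gp6, Clec1b and Treml1. They were chosen by name, with earlier results of these data known, among 25885 gene names on the array, and 12 probes carried those names. Of these probes, 11, for 9 genes, were well above background in the channel of the rat RNA on all 24 arrays. The Gp6 probe was well above background there on 0 of 24 arrays and was not tested.

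Platelets are cell fragments without a nucleus that megakaryocytes of the bone marrow shed into the blood, and they carry over megakaryocyte RNA. Itga2b and Itgb3 encode the subunits of the fibrinogen receptor, through which platelets aggregate. Gp1bb, Gp9 and Gp5 encode parts of the receptor for von Willebrand factor, through which platelets hold on to a damaged vessel wall. Gp6 and Clec1b encode receptors that start platelet activation on collagen and on podoplanin. Treml1 encodes a receptor stored in the alpha granules, and Pf4 and Ppbp encode chemokines released from those granules.

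Blood RNA was hybridised on 24 two-color arrays, 4 in each of 6 groups of male Sprague-Dawley rats that were 8 weeks old at the start and were fed for 6 weeks. The G0 groups ate a semi-synthetic control diet, the G1 groups had oat beta-glucan of high molecular weight added to it (beta-glukan 1 in the labels), and the G2 groups oat beta-glucan of low molecular weight (beta-glukan 2). C rats were injected with saline and LPS rats with lipopolysaccharide of E. coli at 10 mg/kg, both through the tail vein. Each rat had 2 injections, a week apart, and blood was drawn at the end of feeding. The groups were C-G0, LPS-G0, C-G1, LPS-G1, C-G2 and LPS-G2. For LPS-G0 replicates 3 and 4, 1 label says LPS and another says control, and they were kept as LPS-G0. Each array also carried a common reference pooled from the rats of the experiment. Markers of erythroid cells (9 of 10 genes), T cells (7 of 8) and neutrophils (5 of 10) were tested too. Whole blood holds RNA of all these cells, so that fewer platelets and less of a transcript per platelet cannot be told apart.

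Values are log2 of the Cy3 over the Cy5 signal. By the labels the rat RNA carried Cy3, and by the study's methods it carried Cy5, so that the direction used here opposes those methods. On 24 of 24 arrays the Cy3 signals deviated more from the median array than the Cy5 signals did, and the spread within groups was wider in Cy3 for 95.3% of 7074 probes and for 9 of 9 platelet genes. Per array the ratio of these spreads, Cy3 over Cy5, ran from 1.02 to 2.71. A common reference should vary less than the samples set against it, and the direction of the labels was kept on that ground. The dyes were swapped on no array, so that a wider spread of the dye itself cannot be told apart from that of the samples. The lowest correlation of log2 ratios between 2 arrays was -0.54 over the probes tested. If the dyes were the other way round, every direction of a ratio below would turn, with the same sizes; the filter on dim probes and the values of single channels also rest on the labels' reading.

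The probes are 60 bases long, and the ratio of each gene rests on 1 such sequence. Some of the probes that read wholly or mostly as coding sequence are printed here 5′ to 3′, with rn4 positions from the array files. For Gp1bb the probe printed is the dimmer one, on which its ratio does not rest. That of Ppbp runs a few bases past its stop codon, which is not marked. Capitals in the first pair mark the longest run that both chemokine probes share, 9 bases, and those in Gp1bb mark its stop codon.
Pf4 (chr14:18812555-18812614, minus strand): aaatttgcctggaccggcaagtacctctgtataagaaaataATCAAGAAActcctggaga
Ppbp (chr14:18816439-18816498, minus strand): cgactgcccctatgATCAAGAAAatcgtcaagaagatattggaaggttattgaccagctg
Gp9 (chr4:121967070-121967129, plus strand): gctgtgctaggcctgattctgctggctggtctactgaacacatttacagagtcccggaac
Gp1bb, its dimmer probe (chr11:84370652-84370711, plus strand): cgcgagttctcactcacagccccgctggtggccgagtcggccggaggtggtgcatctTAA
Clec1b (chr4:166679434-166679493, plus strand): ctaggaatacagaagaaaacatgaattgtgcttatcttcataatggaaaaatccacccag
Itgb3 (no position given): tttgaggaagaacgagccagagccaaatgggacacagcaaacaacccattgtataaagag
The probes of the 2 chemokine genes lie beside each other on chromosome 14. Both Gp1bb probes (the brighter at chr11:84370911-84370970) also match an accession of Septin5 in the array's own annotation, so that their signal may hold transcripts of that neighbour. The Treml1 probe spans 471 bases of rn4 (chr9:8019288-8019758) with its 60 bases. For Itga2b (chr10:91557086-91557145) and Gp1bb the brighter of 2 probes was used, and Gp5 had 1 probe (chr11:72344519-72344578).

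Across the 6 groups the platelet genes stayed close to the reference. Group means of the log2 ratio ran from -0.56 for Pf4 in C-G0 to 0.38 for Itgb3 in C-G0. No gene was saturated on any array. The processed Cy3 signal of Pf4 ran from 37900 to 153000, that of Gp5 from 664 to 3180 and that of Itgb3 from 155 to 539, each read within its own probe since probes differ in brightness.

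**Figure D1:**
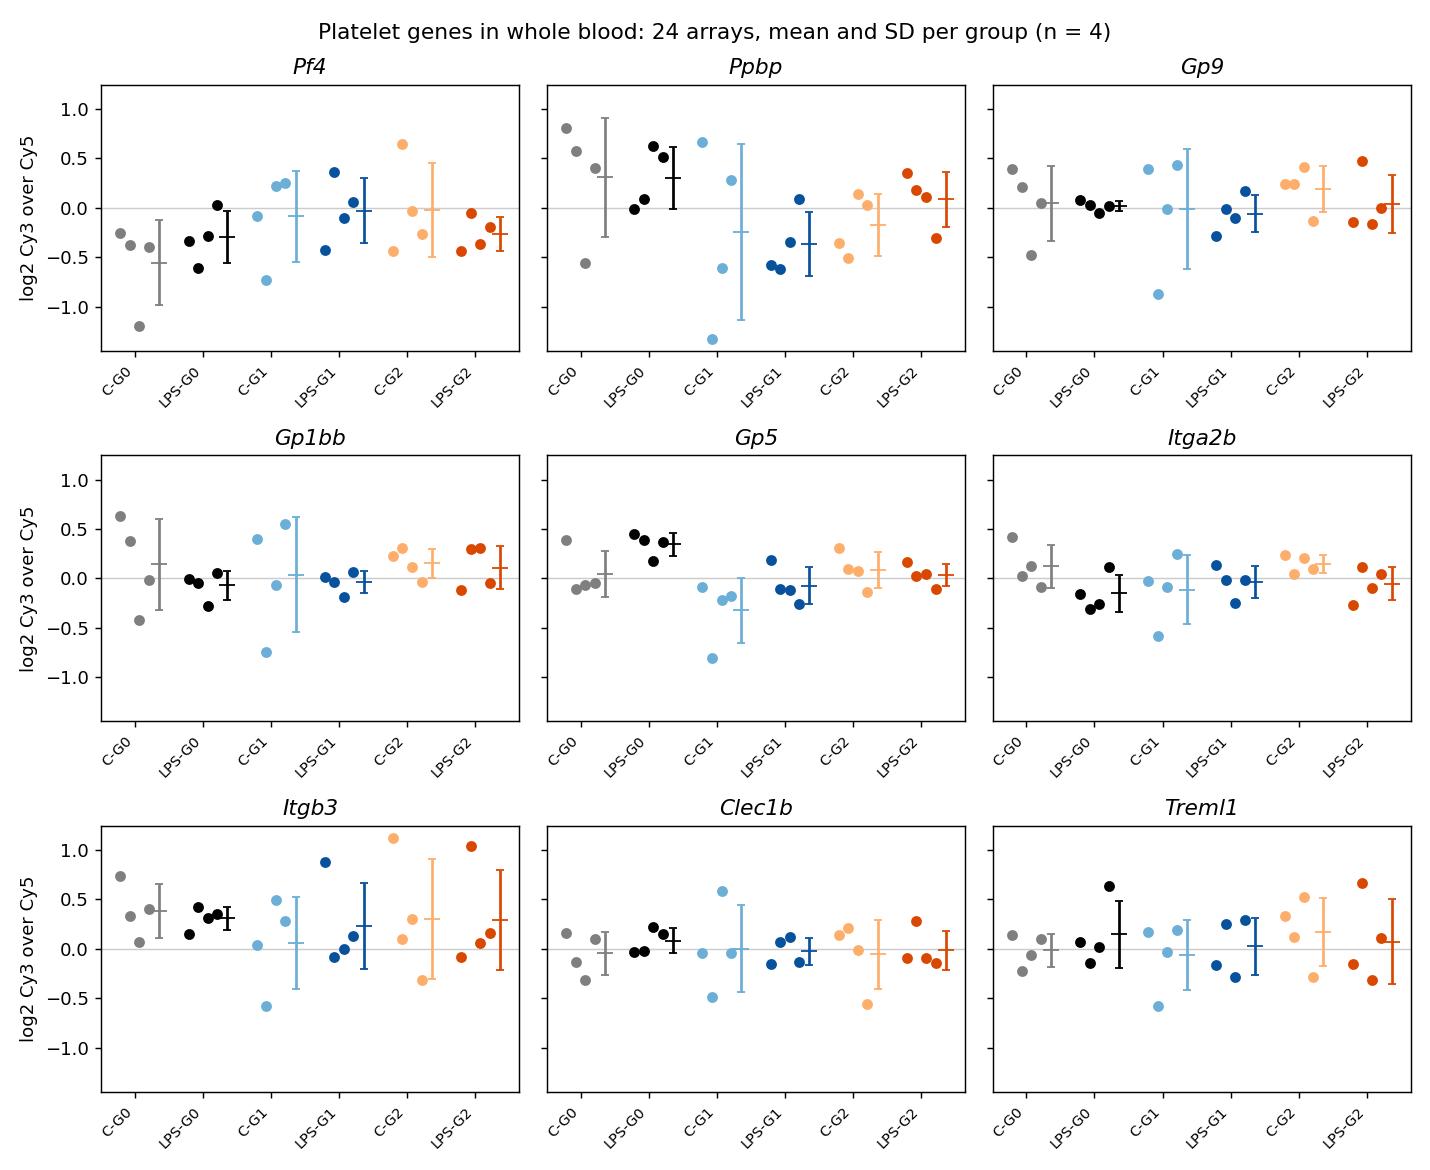
Log2 Cy3 over Cy5 of the 9 platelet genes tested. Each point is 1 array, placed by replicate from left to right within its group, and the bar beside the points gives the mean and SD (n = 4). The low point of C-G1, replicate 2, lies under its group in most panels. The groups compared overlap, except LPS-G2 with LPS-G0 for Gp5.

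No shift of the platelet genes with LPS was detected. Over the 3 diets, 0 of 9 genes passed an adjusted p of 0.05 by limma, where 0.0187% of the 10708 probes did, and 0 of 9 had an unadjusted p under 0.05, where 9.61% of the probes did. The median log2 difference, LPS minus C, was 0.03 for the 9 genes and 0.01 for all probes. The differences ran from -0.13 for Itga2b to 0.17 for Gp5, and every 95% interval lay between -0.38 and 0.44 on the log2 scale, that is between 0.767-fold and 1.36-fold. A change of the size of 2-fold in either direction was outside the interval of each of the 9 genes.

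Pf4 shows the size of the noise. In C-G0 its log2 ratios were -0.26, -0.38, -1.20 and -0.40 in replicates 1 to 4, and in LPS-G0 they were -0.33, -0.61, -0.29 and 0.03. The groups overlapped and control replicate 3 lay far below the other 3. The difference of LPS over C was 0.03 ± 0.15 (SE) over the 3 diets, with an exact permutation p of 0.871.
Gp9, which anchors the von Willebrand factor receptor in the membrane, gave 0.39, 0.21, -0.48 and 0.05 in C-G0 and 0.08, 0.03, -0.05 and 0.01 in LPS-G0. The LPS-G0 values lay inside the range of C-G0. Its difference over the 3 diets was -0.07 ± 0.13 (SE), with an exact permutation p of 0.587.

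Within single diets no platelet gene passed either. In LPS-G0 vs C-G0, 0% of probes passed the adjusted p and 11.3% the unadjusted one, against 0 and 0 of the 9 genes. In LPS-G1 vs C-G1 these shares were 0.00934% and 2.81%, while in LPS-G2 vs C-G2 they were 0% and 1.09%, again with 0 genes by either rule. The 2 tests of whether the response to LPS differed between diets, G1 by LPS and G2 by LPS, called 0% of probes, had 3.01% and 5.57% of probes at an unadjusted p under 0.05, and held 0 of the 9 genes by either rule. The intervals of these 2 tests were wide, from -1.24 to 1.24 over the 9 genes, with half-widths from 0.47 for Gp5 and Itga2b to 0.98 for Ppbp. The value of Gp5 in LPS-G0 vs C-G0 depended on the run. It was 0.30 in the main fit (unadjusted p = 0.071 by limma), 0.42 without C-G0 replicate 1 (0.0152) and 0.26 without C-G0 replicate 2 (0.159). With the slide as a block the unadjusted p by limma was 0.043. The adjusted p was above 0.05 in each of these runs.

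The comparisons between diets are given with the shares of all probes beside the counts of platelet genes. In the 6 comparisons between diets at the same injection, 0 of the 9 genes passed an adjusted p of 0.05 by limma. The shares of all probes that passed were 0.028% in C-G1 vs C-G0, 0.028% in C-G2 vs C-G0, 0.028% for LPS-G1 against LPS-G0, with 0% in each of LPS-G2 vs LPS-G0, C-G2 vs C-G1 and LPS-G2 vs LPS-G1. By the unadjusted rule 1 of 9 genes was called in C-G1 vs C-G0 (27.9% of probes), 1 in C-G2 vs C-G0 (13.3%), 1 in LPS-G1 against LPS-G0 (23.7%), 0 in LPS-G2 vs LPS-G0 (5.29%), 1 in C-G2 vs C-G1 (15.4%) and 0 in LPS-G2 vs LPS-G1 (4.21%). In each of the 4 with a gene, 1 of 9 is a smaller share than that of all probes. With only 9 genes such counts cannot show a difference from those shares, and they are not read as a trait of the platelet genes. The gene was Pf4 in C-G2 vs C-G0 and Gp5 in the other 3. These comparisons share control groups.

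Gp5, the subunit of the von Willebrand factor receptor that thrombin cuts, was the gene with an unadjusted p under 0.05 for G1 against G0 in both the C and the LPS rats. Its log2 ratios were 0.39, -0.10, -0.07 and -0.05 in C-G0 and -0.08, -0.81, -0.22 and -0.18 in C-G1. In the LPS rats they were 0.45, 0.39, 0.18 and 0.37 for G0, and 0.19, -0.11, -0.12 and -0.26 for G1. The G1 arrays lay lower in both pairs, with 1 array or more in the range of the G0 group each time. The log2 difference was -0.36 in C-G1 vs C-G0 (95% interval -0.70 to -0.03, exact permutation p = 0.0571) and -0.42 in LPS-G1 vs LPS-G0 (-0.75 to -0.09, exact permutation p = 0.0571). The adjusted p over all probes by limma was 0.157 for the C rats and 0.133 for the LPS rats. The value in the C rats rested on single arrays: it was -0.20 without C-G1 replicate 2 (unadjusted p = 0.187), -0.25 without C-G0 replicate 1 (0.134), -0.30 with the slide as a block (0.0501) and -0.12 with array weights (0.369). In the LPS rats the value ran from -0.51 to -0.36 with 1 array left out, and the unadjusted p was 0.0525 without LPS-G1 replicate 4.
On the G2 diet the values of Gp5 were 0.31, 0.09, 0.08 and -0.14 in C-G2 and 0.17, 0.02, 0.05 and -0.11 in LPS-G2. LPS-G2 lay wholly below LPS-G0, the only pair of groups in the 9 pairwise comparisons in which a platelet gene did not overlap; 10.2% of all probes did not overlap in that pair. The difference was -0.32 with an exact permutation p of 0.0286, the smallest that 4 against 4 arrays can give, and an adjusted p of 0.766 by limma. In order of their means the groups were LPS-G0 (0.35), C-G2 (0.08), C-G0 (0.04), LPS-G2 (0.03), LPS-G1 (-0.07) and C-G1 (-0.32), and the middle 3 means differed by less than the SD of each of those groups.

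The G1 and G0 groups were also compared over C and LPS together, 8 arrays against 8, a comparison chosen after the values were seen. Gp5 then fell by 0.39 on the log2 scale, to 0.762-fold (95% interval 0.647-fold to 0.897-fold), with an adjusted p of 0.0205 by limma and an exact permutation p of 0.00163 within injection. It was 1 of the 9 platelet genes, in a comparison in which 27.9% of all probes passed the same rule and 44.9% had an unadjusted p under 0.05, against 3 of the 9. Ppbp had a log2 difference of -0.61 (95% interval -1.10 to -0.12, adjusted p = 0.0547) and Pf4 one of 0.37 (0.00 to 0.74, adjusted p = 0.11). The other 6 genes had differences between -0.20 and -0.03, and the median over the 9 was -0.07 against 0.06 over all probes. Markers of erythroid cells moved in the same comparison: 7 of 9 fell, with a median log2 difference of -0.81, and their part in the platelet values was not tested. The slides were uneven in this comparison. On slides 1, 2 and 3, G1 had 2, 4 and 2 arrays and G0 had 4, 2 and 2. Slide 2 had the lowest mean of Ppbp (-0.39) and of the erythroid markers (-0.275). Within slides 1, 2 and 3, G1 minus G0 was -0.32, -0.76 and -0.27 for Ppbp. With the slide as a block, 15.2% of all probes passed. The part of the slides in the erythroid values was not tested.
In G2 vs G0 over C and LPS, 0 of 9 genes passed by limma (0.00934% of probes) and 0 had an unadjusted p under 0.05 (12.7% of probes). The 9 intervals ran from -0.84 to 0.66.

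**Figure D2:**
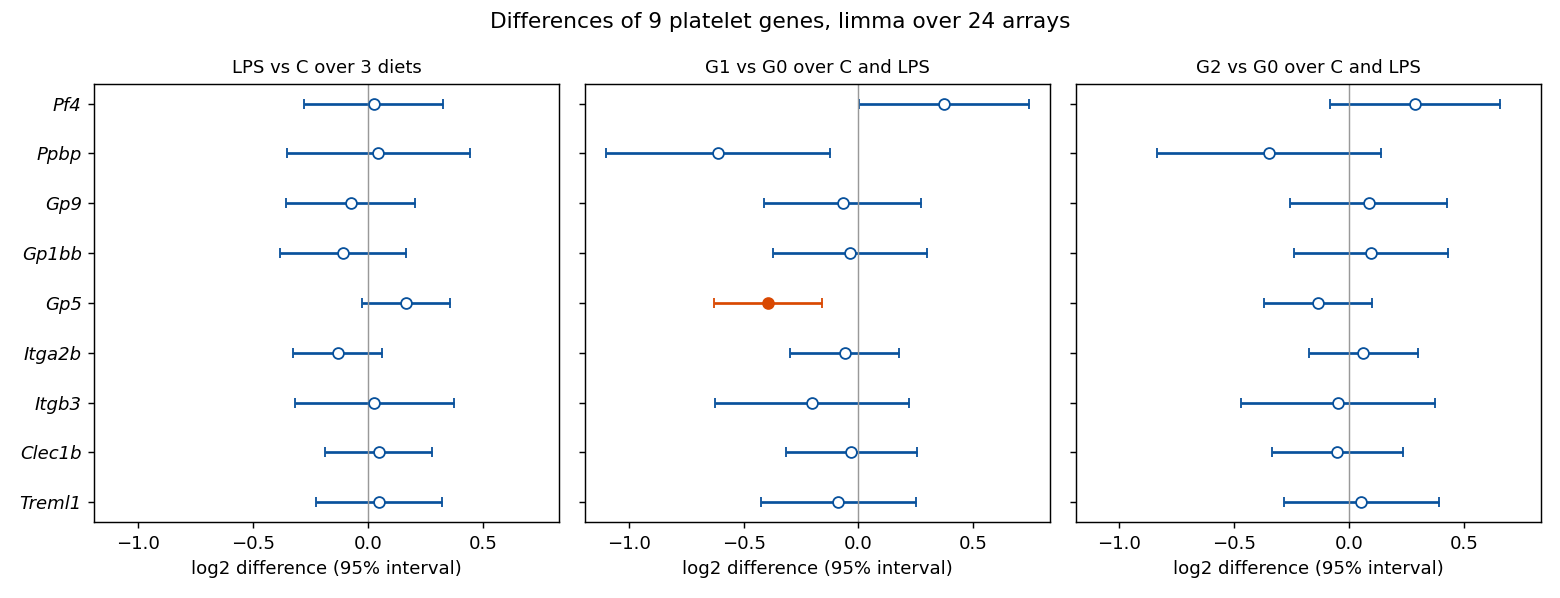
Log2 differences of the 9 platelet genes with 95% intervals from limma over 24 arrays, for LPS against C, G1 against G0 and G2 against G0. The filled point, Gp5 in G1 against G0 at -0.39, has an adjusted p under 0.05, and open points do not.

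The call of Gp5 stood near the threshold in some runs. With 1 array left out its adjusted p by limma ran from 0.0137, without LPS-G1 replicate 1, to 0.0505, without C-G0 replicate 1. The latter array had the highest value of its group, and without it the log2 difference was -0.33 and 10.8% of all probes passed. All other runs with 1 array left out gave an adjusted p under 0.05. In the Cy3 signal alone the difference was -0.28 with an adjusted p of 0.376, in a setting that called 0% of all probes. Without C-G1 replicate 2 the difference of the ratio was -0.31 with an adjusted p of 0.0478. Both channels of this probe moved with the slide: the mean log2 Cy3 signal was 11.16, 10.00 and 10.62 on slides 1, 2 and 3, and the mean Cy5 signal 10.95, 10.13 and 10.65. Over the 24 arrays the 2 channels had a Pearson r of 0.875 for Gp5 and between -0.05 and 0.51 for the other 8 genes. Within slides, G1 minus G0 was -0.23, -0.37 and -0.38 for Gp5, and with the slide as a block it was -0.33 with an adjusted p of 0.0402.

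**Figure D3:**
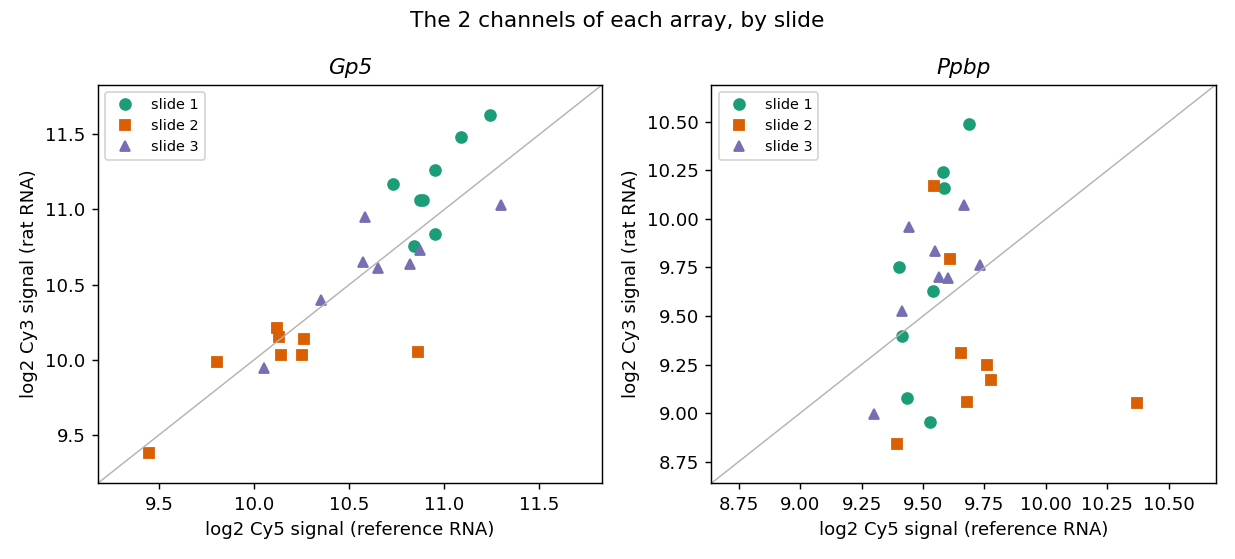
Log2 Cy3 signal against log2 Cy5 signal of Gp5 and Ppbp, 1 point an array, by slide, with the line of equal signals. The 2 channels of Gp5 rose together (r = 0.875) and its slide 1 arrays lay at the upper end, while those of Ppbp did not (r = -0.05). The slide 2 point farthest to the right of its slide in both panels is C-G1 replicate 2.

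For Pf4 and Ppbp, both chemokines of the alpha granules, the relation depended on how it was taken. Their Pearson r was 0.08 over 24 arrays, 0.43 with group means removed, and -0.34 without the 2 arrays of lowest platelet mean, given as a description since all arrays share 1 reference. In the LPS rats Ppbp gave -0.02, 0.09, 0.63 and 0.51 on G0 and -0.58, -0.62, -0.35 and 0.09 on G1. In the C rats it gave 0.81, 0.58, -0.56 and 0.40 on G0 and 0.66, -1.32, -0.60 and 0.28 on G1. The C-G0 and C-G1 arrays spread over more than the difference between any of the group means. The log2 difference in LPS-G1 vs LPS-G0 was -0.67 (95% interval -1.36 to 0.02, exact permutation p = 0.0857), and without LPS-G0 replicates 3 and 4, the arrays of conflicting labels, it was -0.40.
The difference of Pf4 in C-G2 vs C-G0 was 0.54 (0.01 to 1.06, exact permutation p = 0.2). The C-G2 values of Pf4 were -0.43, 0.65, -0.03 and -0.27. Without C-G0 replicate 3 the difference was 0.32.

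Of the other genes, Itga2b had values from -0.58 to 0.42, Gp1bb from -0.74 to 0.63, Gp9 from -0.88 to 0.47, Itgb3 from -0.58 to 1.12, Clec1b from -0.56 to 0.58 and Treml1 from -0.58 to 0.66. None of these 6 had an unadjusted p under 0.05 in any of the 14 comparisons. Their intervals lay within 2-fold in both directions in 14 of 14 comparisons for Itga2b, Gp1bb, Gp9, Clec1b and Treml1, and in 13 of 14 for Itgb3.
The 2 probes of Gp1bb had a Pearson r of 0.903 over the 24 arrays and a median gap of 0.09 in log2 ratio. Those of Itga2b had an r of 0.674 and a median gap of 0.26, and in LPS-G0 vs C-G0 they gave -0.27 and 0.16, neither with an unadjusted p under 0.05.
Gp6 gave a processed Cy3 signal between 11.3 and 47.4 and stayed near background throughout, so that no ratio is given.

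The platelet genes varied between arrays of a group, and partly together. The 36 pairs of the 9 genes had Pearson r from -0.01 to 0.85 over the 24 arrays, with a median of 0.48, given as a description since the arrays share a reference. Gp9 and Gp1bb, partners in the von Willebrand factor receptor, had the highest r, 0.852. Gp9 had the closest relation to the mean of the other 8 genes (r = 0.895) and Pf4 the loosest (r = 0.369). Gp5, of the same receptor, had an r of 0.43 with Gp9 and 0.40 with Gp1bb over the 24 arrays, 0.56 and 0.68 with group means removed, and -0.03 and 0.02 without the 2 low arrays described next.

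**Figure D4:**
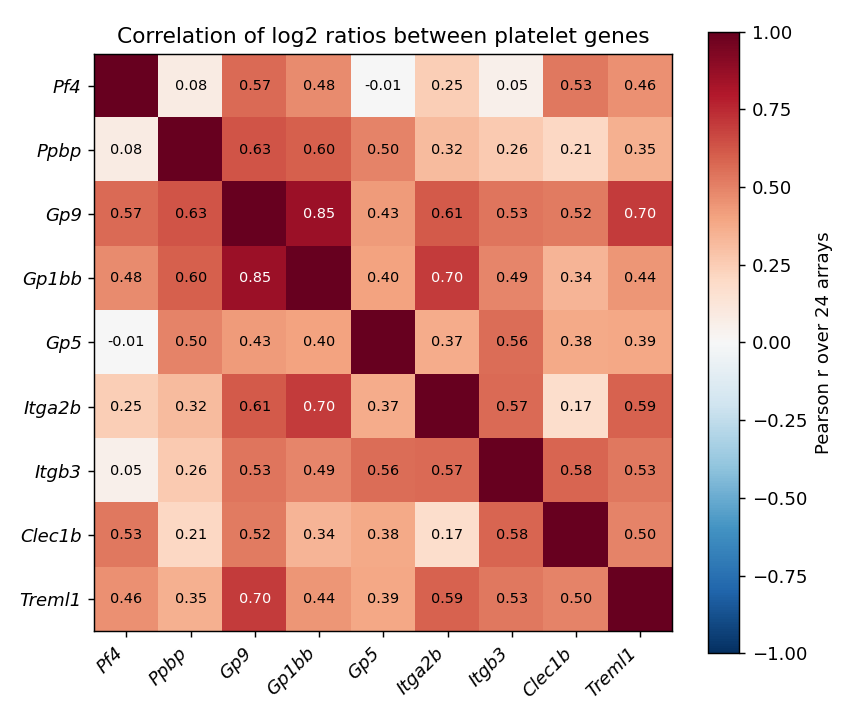
Pearson r of the log2 ratios between each pair of the 9 platelet genes over 24 arrays, written in each cell. Gp9 with Gp1bb is the darkest cell off the diagonal (0.85), and Pf4 with Gp5, Ppbp and Itgb3 are near 0.

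Part of this went with 2 arrays of the saline groups, those of lowest mean over the 9 genes. C-G1 replicate 2 had a mean of -0.77 over the 9 genes, each centred on its own mean, and was the lowest of all 24 arrays for 7 of them. Its Gp9 ratio was -0.88 and its Ppbp ratio -1.32. These low ratios came with a high Cy5 channel, the reference by the labels: over the 9 genes its log2 Cy5 signal was on average 0.654 above that of the other arrays of its slide, highest on the slide for 9 of 9 genes, while its Cy3 signal differed from theirs by -0.099. C-G0 replicate 1 also had the highest Cy5 signal of its slide for 9 of 9 genes, 0.370 above the others, but its Cy3 signal was higher still, by 0.706. On the other 23 arrays the Cy5 deviation from the slide's other arrays ran from -0.393 to 0.370. By the labels that channel holds the same pooled RNA on every array, and by the study's methods it would hold the RNA of the rat. What raised it on this array was not tested. Without this array the G1 against G0 difference of Ppbp was -0.43. C-G0 replicate 3 had a mean of -0.34, with a Cy3 signal that differed from the slide's other arrays by -0.665 and a Cy5 signal that differed by -0.393, and the lowest Pf4 ratio of all arrays. The other 22 arrays had means from -0.20 to 0.36.
Without those 2 arrays the median r of the pairs was 0.24, while Gp9 with Gp1bb stayed at 0.72. The 2 arrays were picked by the mean of these same genes, so that a lower r without them is partly built into the choice. Arrays at the high end, such as C-G0 replicate 1 (0.36) and LPS-G2 replicate 2 (0.315), were kept. C-G1 replicate 2 was also low in the erythroid markers (-1.53, against -0.74 to 0.50 on the other arrays) and in the megakaryocyte transcription factors (-1.05), and C-G0 replicate 3 was not (0.32 and 0.01). The part of these markers in the platelet values was not tested. In the saline groups the median SD of the platelet genes was 0.276 (C-G0), 0.457 (C-G1) and 0.31 (C-G2, which holds neither array), against 0.377, 0.285 and 0.307 over all probes. The LPS groups had median SDs of 0.148, 0.189 and 0.22 for the platelet genes, against 0.233, 0.23 and 0.224 over all probes.

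**Figure D5:**
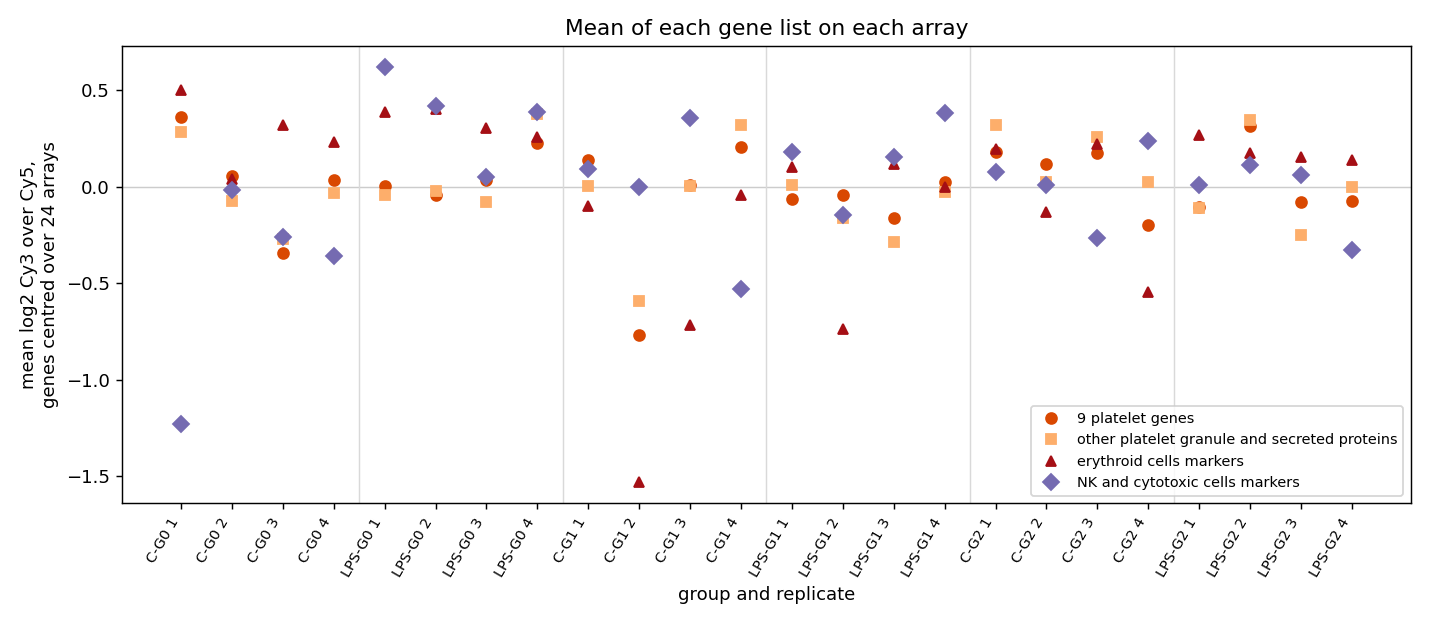
Mean log2 ratio of 4 gene lists on each of the 24 arrays, every gene centred on its mean over the arrays. C-G1 replicate 2 lies lowest for the platelet genes (-0.77), the other granule genes (-0.60) and the erythroid markers (-1.53), and C-G0 replicate 1 lies lowest for the NK and cytotoxic markers (-1.23).

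Among 6840 other named genes, those whose ratios followed the mean of the platelet genes most closely over the 24 arrays were Odc1 (r = 0.879), which encodes ornithine decarboxylase of polyamine synthesis, Tspan9 (0.862), a tetraspanin, Pla1a (0.846), a phospholipase, Rbms2 (0.844), an RNA-binding protein, and Bfsp2 (0.843), a filament protein of the lens. Without the 2 low arrays their r was between 0.60 and 0.73.
A wider view came from 4 more lists of platelet genes, of which 39 of 56 were tested. In the 12 comparisons planned, 0 of the 39 passed an adjusted p of 0.05 by limma, where at most 0.028% of all probes did. By the unadjusted rule at most 7 of 39 were called, in C-G1 vs C-G0 (17.9%, against 27.9% of all probes).
In G1 vs G0 over C and LPS, 5 of the 39 passed (12.8%, against 27.9% of all probes), 3 higher and 2 lower. Nbeal2, which alpha granules need to form, was higher by 0.76, Plcg2, a phospholipase of receptor signaling, by 0.55, and Syk, the kinase that acts before it, by 0.42. Pear1, a receptor of platelet contacts, fell by 0.59, and Gata1, the transcription factor of megakaryocytes and red cells, fell by 0.59. The adjusted p by limma was 0.0351, 0.0278, 0.0339, 0.0154 and 0.029 in that order. Plcg2 and Syk are also used by leukocytes and Gata1 by the erythroid cells whose markers fell. Of the leukocyte markers, 1 of 6 for monocytes (median 0.15) and 1 of 5 for B cells (median 0.23) were called higher in this comparison, 0 of 7 for T cells and 0 of 5 for neutrophils were called, and 1 of 7 for NK and cytotoxic cells was called lower (median 0.21). Their part in these values was not tested, nor was that of the slides, which were uneven between G1 and G0. By lists, 0 of 8 granule and secreted proteins passed, 1 of 8 receptors, 3 of 16 signaling, enzyme and cytoskeleton genes, and 1 of 7 transcription factors.

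The sequence before the start of 2 of these genes is shown for reference, Gp9 for its place nearest the others and Gp5 for its call, as the 250 bases upstream in the RefSeq annotation of GRCr8. Capitals mark GATAA, the core that GATA factors bind, and AGGAAG, which holds the core of ETS factors, on either strand; no marked runs overlap.
Gp9 (chr4:121792592-121792841, plus strand): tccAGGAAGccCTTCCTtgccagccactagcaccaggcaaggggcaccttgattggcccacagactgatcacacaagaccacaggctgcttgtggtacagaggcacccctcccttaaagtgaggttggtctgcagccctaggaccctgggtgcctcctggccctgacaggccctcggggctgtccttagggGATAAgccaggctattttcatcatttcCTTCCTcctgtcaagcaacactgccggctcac
Gp5 (chr11:83948257-83948506, plus strand): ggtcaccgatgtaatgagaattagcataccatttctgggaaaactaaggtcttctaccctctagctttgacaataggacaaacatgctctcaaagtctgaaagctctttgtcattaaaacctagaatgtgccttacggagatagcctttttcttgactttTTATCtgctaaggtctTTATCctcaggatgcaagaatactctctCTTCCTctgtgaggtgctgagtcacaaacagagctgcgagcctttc
Of the 10 genes, 8 matched the promoter table. GATAA stood in 5 of these 8 and in 23.5% of 33469 rat promoters of the same length, and AGGAAG in 4 of 8 and in 29.5%. Gp1bb, Ppbp and Treml1 had neither run in this window.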

How the data were processed

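Per the file headers, the authors scanned the arrays and used Agilent Feature Extraction, which subtracted background and balanced the dyes by Lowess, to give processed intensities of both channels and their log10 ratio of Cy5 over Cy3. The deposited table of the series holds the same log10 ratios: 1511424 of 1511424 values were equal. Here the log10 ratio was turned into log2 of Cy3 over Cy5. Spots marked as outliers (679 to 1133 an array) were left out and spots of a probe averaged. Of 30367 probes, 10708 were tested: those that cleared the background in Cy3 on each of the 4 arrays of 1 group or more. Between 7786 and 15385 probes an array were above background in Cy3, and the number of arrays limits the precision.

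limma 3.58.1 in R 4.3.3 fitted 6 group means over 24 arrays, two-sided, with Benjamini-Hochberg adjustment over all probes and a threshold of 0.05. There were 12 planned comparisons and 2 added after the data were seen. Exact permutation tests were two-sided, over the 70 arrangements of 8 arrays, or within diet or injection. Each gene is its brightest probe. From other lists the 3 largest called changes in each direction were named, and the 5 genes of highest correlation. The genes and lists were chosen with earlier results of these data known. The labels call the arrays biological replicates. On simulated data for LPS-G0 vs C-G0 with 10676 probes, 49 of 50 changes of 2 on the log2 scale, 31 of 50 of 1 and 2 of 50 of 0.5 were recovered. Probe positions are those of the array files (rn4) and promoters those of RefSeq (GRCr8).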

Additional observations from a re-analysis of the deposited data

Results flagged for a closer look

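Of 54 sets of 4 arrays, 9 genes in 6 groups, 3 had 1 array far from the other 3 by Dixon's test, and chance alone gives such a gap in about 1 in 20 sets. Pf4 in C-G0 replicate 3 was -1.20, against -0.40 to -0.26 in the other 3 rats of that group. Gp5 in C-G0 replicate 1 was 0.39, against -0.10 to -0.05. Clec1b in LPS-G2 replicate 2 was 0.28, against -0.15 to -0.09.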

How the results depend on the processing

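For the 12 planned comparisons, the count of platelet genes at an adjusted p under 0.05 stayed at 0 in every alternative run but array weights, which gave 1 in LPS-G0 vs C-G0 (Gp5, 0.43, adjusted p = 0.0431) and 1 for LPS-G1 vs LPS-G0 (Gp5, -0.48, adjusted p = 0.00389). Array weights called 9.25% and 28.2% of all probes there. The share of all probes also moved in runs that called 0 platelet genes. For LPS-G1 vs LPS-G0 it was 0.028% in the main fit and 8.93% with the 16 arrays of the study's 4 groups. For C-G1 vs C-G0 it was 0.028% in the main fit and 8.99% without C-G0 replicate 4. In G1 vs G0 over C and LPS the main count was 1, where 27.9% of all probes were called. It became 2 with the replicate block (36.4% of probes) and with probes above background on all 24 arrays (31.9%), both times with Ppbp. With array weights (22.3%) it was 2, with Pf4. The count became 0 with the Cy3 channel alone (0% of probes) and with no filter on dim probes (0%, Gp5 adjusted p = 0.0602). It was also 0 without the 2 arrays of lowest platelet mean (lowest adjusted p = 0.0529). With 1 array left out the count ran from 0 to 2. It was 0 without C-G0 replicate 1 (10.8% of probes), and 2, with Ppbp, without C-G0 replicate 3 (26.3%) or C-G1 replicate 1 or 4. The replicate block changed no other count of platelet genes, while it took the probes called from 3 to 600 in C-G1 vs C-G0 and from 3 to 1008 in LPS-G1 vs LPS-G0. The labels do not say what the numbers mark. The numbers ran with the slides, in that every replicate 1 lay on slide 1 and every replicate 4 on slide 3. Replicates 2 and 3 lay on different slides in different groups, so that number and slide are partly confounded. Same-numbered arrays correlated from -0.31 to 0.54, on average above other arrays in 11 of 15 pairs of groups, but in 0 of 15 were all 4 over 0.1 and in 0 of 15 did every array correlate best with its own number, so the numbers were not taken to pair the samples, which does not show that they share nothing. An analysis of variance followed by Tukey's HSD on 16 arrays had 1 platelet gene at an unadjusted p under 0.05 for LPS-G1 vs LPS-G0 (12.9% of probes), 0 for LPS-G0 vs C-G0 (5.52%) and 0 for LPS-G2 vs LPS-G0 (1.62%). After Benjamini-Hochberg 0 of 10284 probes passed in each of the 3, so that no platelet gene could. Of 4725 single values, 261 changed sign, and 0 of the called ones reversed. The cause of these shifts was not tested. With 4 arrays a group, differences of 0.5 on the log2 scale were seldom recovered in the simulation.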
